A study of Homo sapiens with 6 samples.

Results

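Long intergenic noncoding RNA genes (symbols that start with LINC and a number) and microRNA host genes (symbols of the form MIR...HG) were followed in BT-549 cells after silencing of NEAT1. The genes were chosen by symbol and by a measured value, a mean of at least 1 TPM (TPM are reads scaled by transcript length and then by library) over all libraries. Of 25545 genes in the deposited table, 1686 had a matching symbol (1633 LINC genes and 53 microRNA hosts). Of these, 1094 were listed at 0 in every library, 519 were above 0 with a mean under 1 TPM, and 73 (63 LINC genes and 10 microRNA hosts) reached the limit and were among the 10721 genes tested. The cells are the BT-549 line, an established line of triple-negative breast cancer. They were transfected with a control siRNA (CsiRNA) or with an siRNA against NEAT1 (NEAT1siRNA), each in 3 libraries, and RNA was taken after 48 h. Titles of both groups carry the prefix "tet-", which the labels do not explain, and all libraries come from this single line. The methods of the study give RNA from cells cultured in triplicates, and neither they nor the labels say whether these were handled on separate days. The p-values therefore reflect only variation between these libraries. The test also draws the spread of each gene towards that of genes of similar mean, so a p-value or SE is not the gene's own spread alone.

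A LINC gene lies between protein-coding genes, or was thought to when it was named, and its RNA is spliced and polyadenylated like an mRNA but is not known to encode a protein. A microRNA host gene is transcribed as a long primary RNA, and the Microprocessor, made of DROSHA and DGCR8, cuts hairpins from its exons or introns that become microRNAs. Mature microRNAs pair with mRNAs through their seed and lower their stability and translation. Libraries made from polyadenylated RNA measure the host transcript and not the mature microRNA.

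Among the host genes that changed after NEAT1 silencing, MIR155HG encodes miR-155, and MIR17HG, MIRLET7BHG, MIR503HG and MIR924HG encode microRNAs of different seed families. For each hairpin of MIR17HG, for both let-7 hairpins of MIRLET7BHG and for 1 hairpin each of MIR503HG and MIR924HG, 1 arm is shown to let these families be seen. The sequences are those of RefSeq on GRCh38.p14, written 5′ to 3′, and capitals mark the seed, bases 2 to 8. The first 6 come from exons of MIR17HG on chromosome 13, the next 2 from exons of MIRLET7BHG on chromosome 22, and miR-503 and miR-924 lie outside the exons of their hosts on chromosomes X and 18.
hsa-miR-17-5p: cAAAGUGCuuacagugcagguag
hsa-miR-20a-5p: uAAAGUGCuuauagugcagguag
hsa-miR-18a-5p: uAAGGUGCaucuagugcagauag
hsa-miR-19a-3p: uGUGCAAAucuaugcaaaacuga
hsa-miR-19b-3p: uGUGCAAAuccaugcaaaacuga
hsa-miR-92a-3p: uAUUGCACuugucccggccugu
hsa-let-7a-5p: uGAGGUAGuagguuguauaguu
hsa-let-7b-5p: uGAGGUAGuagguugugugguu
hsa-miR-503-5p: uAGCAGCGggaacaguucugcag
hsa-miR-924: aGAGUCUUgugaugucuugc
Within MIR17HG, miR-17-5p and miR-20a-5p share 1 seed and miR-19a-3p and miR-19b-3p share another. The seed of let-7a-5p and let-7b-5p is also found in MIR100HG, which holds a further copy of let-7a. Of the 10 hosts, 8 held 21 microRNA genes of the RefSeq table, with 38 mature sequences. The others were MIR155HG and MIR22HG, whose mature microRNAs were missing from the source of sequences used, so their absence says nothing about these hosts.

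Recovered reads ran from 15787271 to 20342838 per library. They were obtained by joining the TPM to the authors' mean normalized counts. The share of reads so obtained that were whole to within 0.05 was 99.9% where that count was under 5, 98.5% from 5 to 50, and 73.4% from 50 to 500, the range that holds the median member. NEAT1 itself was at 7.68 to 13.4 TPM with CsiRNA and at 2.73 to 4.36 TPM with NEAT1siRNA, a log2 fold change of -1.41 (SE 0.14, adjusted p = 1.21e-07 from limma). Mesenchymal genes named as markers of this line were present (VIM at 859 to 1112 TPM), while ESR1 was at 0, PGR at most at 0.00676 TPM and EPCAM at most at 0.0301 TPM. ERBB2, the other receptor of the triple-negative definition, was at 5.76 to 6.36 TPM, and the epithelial keratin KRT18 at 1.04 to 2.07 TPM. PTPRC and PECAM1, which mark leukocytes and endothelial cells, were at most at 0.058 and 0.0125 TPM. Expression relative to the group mean moved with GC content in opposite directions in NEAT1siRNA replicates 1 and 2 (Spearman rho across genes of 0.661 and -0.712). It did so too in CsiRNA replicates 3 and 2 (0.458 and -0.333). Deviations from the mean of 3 libraries cancel within a group, so opposite signs are partly built in, and the values only describe these libraries. The median GC content was 45.8% for the members that rose, 44.9% for those that fell and 44.5% for the rest. The part of GC content in the results was not tested beyond a fit with its trend removed.

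Of the 73 genes, 17 passed the threshold of an adjusted p under 0.05 (limma on log2(TPM + 1), two-sided, adjusted over all genes tested), with 6 higher and 11 lower in NEAT1siRNA cells. This is 23.3% of the members, where 14.0% of all genes tested passed, with 4.99% higher and 8.98% lower. The median log2 fold change was -0.068 for the members and -0.044 for all genes, on the log2(TPM + 1) scale. On recovered reads (voom) the medians were -0.038 and 0.003. The log2(TPM + 1) scale shrinks fold changes of genes at low TPM, and fold changes on reads are given for the genes described singly where they differ most. Fewer cells that transcribe a gene and less RNA per cell cannot be told apart in these bulk libraries. The groups did not overlap for 23 members, or 31.5%, and for 30.3% of all genes. Scaling of the libraries moved both the split and the share. With quantile normalization 7 members were higher and 8 lower, 20.5% of the members, and 20.4% of all genes passed. With median centring 21.9% of the members and 19.7% of all genes passed, and with 4 abundant short RNAs (RN7SK, RN7SL1, RN7SL2 and RPPH1) left out 20.5% and 19.5%. The share of members therefore lay closer to that of all genes under each of these scalings than in the fit reported first.

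A gene can reach the limit on mean TPM through 1 group alone. For 7 members the mean of 1 group was under 1 TPM, and 5 of these were past the threshold (MIR155HG, MIR17HG, MIRLET7BHG and LINC01572 lower, LINC02541 higher). Among the 66 members at 1 TPM or more in both groups, 5 were higher and 7 were lower. Of all genes tested, without this stricter limit, 4.99% were higher and 8.98% lower. The share of all genes under the stricter limit was not computed, so these counts cannot be read as an excess. The members just inside the limit were LINC00476 with a mean of 1.02 TPM and LINC01003 and LINC01733 with 1.06 TPM each. Just outside it were LINC00265 with 0.97, LINC01535 with 0.92 and LINC00629 with 0.913 TPM.

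The members were measured with few reads. Their median was 77.8 reads per library, against 696 for all genes tested, and 8 members had a mean under 10 reads. The coefficient of variation between CsiRNA replicates had a median of 15.8% for the members and 7.73% for all genes, and it was 33.6% for the 8 members under 10 reads. LINC02004, the seventh by mean TPM, had 1, 1 and 0 reads in the CsiRNA libraries and 0, 0 and 3 reads in the NEAT1siRNA libraries, so its mean of 6.30 TPM comes from 5 reads. Of the 17 calls, 16 were genes with a mean of at least 10 reads. The plot of fold change against read number shows where each call lies.

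**Figure D1:**
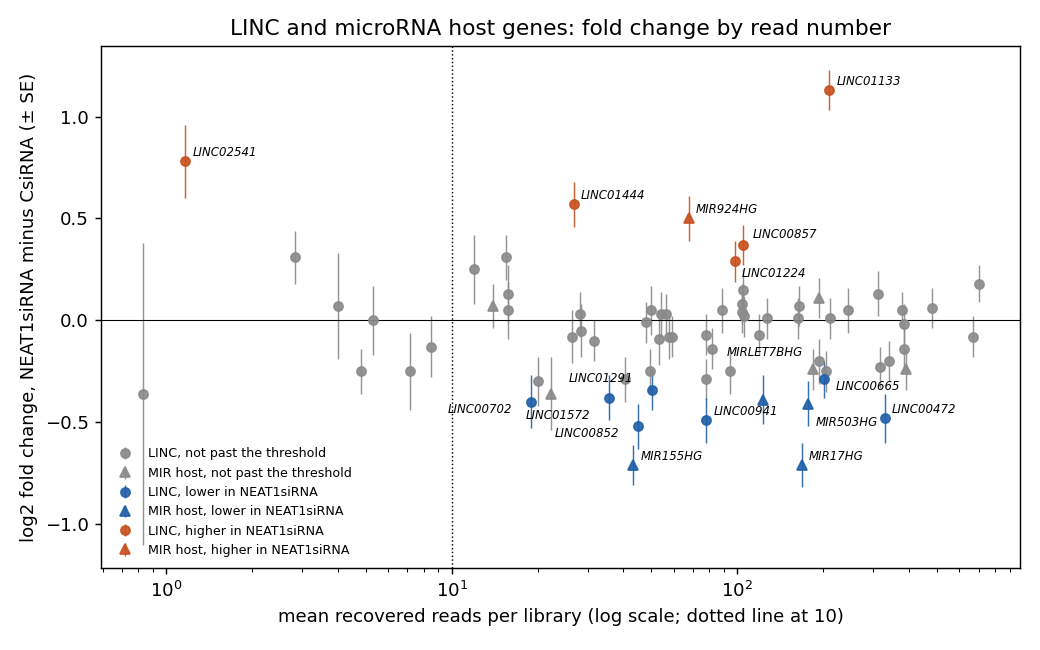
Log2 fold change on log2(TPM + 1) of each of the 73 genes (NEAT1siRNA minus CsiRNA, bars are the SE from limma) against its mean recovered reads per library on a log axis. Triangles are microRNA hosts and circles LINC genes, coloured where the adjusted p is under 0.05. LINC01133 stands highest at 1.13, and LINC02541 is the only called gene left of the dotted line at 10 reads.

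Among the microRNA hosts, 4 fell, 1 rose and 5 did not pass the test. This is 50% of only 10 genes, where 14.0% of all genes passed, and the difference was not tested. MIR17HG, which encodes the miR-17-92 cluster and is a known MYC target, was measured, in the order of replicates 1, 2 and 3 that is used throughout, at 2.64, 1.91 and 1.88 TPM with CsiRNA and at 0.911, 1.02 and 0.817 TPM with NEAT1siRNA. All NEAT1siRNA values lay below all CsiRNA values, and the highest CsiRNA value was that of replicate 1. With NEAT1siRNA the mean was 42.7% of that with CsiRNA, and the log2 fold change was -0.71 (SE 0.11, adjusted p = 5.47e-05 from limma). On recovered reads, which ran from 197 to 269 with CsiRNA and from 84 to 118 with NEAT1siRNA, the log2 fold change was -1.15 (SE 0.13) with voom.

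MIR155HG, on chromosome 21, is the host of miR-155, a microRNA of inflammation and of activated lymphocytes. It had 2.23, 1.81 and 2.47 TPM with CsiRNA and 0.799, 1.03 and 0.97 TPM with NEAT1siRNA. The groups did not overlap, and the highest NEAT1siRNA value was well under the lowest CsiRNA value. Its log2 fold change of -0.71 (SE 0.10, adjusted p = 3.94e-05 from limma) became -1.16 (SE 0.21) on reads, with 47 to 78 reads per CsiRNA library and 22 to 30 per NEAT1siRNA library. The calls for MIR17HG and MIR155HG were kept in 16 of 16 alternative fits each.

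MIR503HG was the most highly expressed of all members. It had 16.3, 16.1 and 19.8 TPM with CsiRNA and 14.3, 13.9 and 10.4 TPM with NEAT1siRNA. The groups were apart, with CsiRNA replicate 3 highest and NEAT1siRNA replicate 3 lowest. The log2 fold change was -0.41 (SE 0.11, adjusted p = 0.0138 from limma), and the call was lost without either of these libraries, with quantile normalization, with no filter on TPM and on recovered reads (adjusted p = 0.0521 with voom).

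MIRLET7BHG, whose let-7 microRNAs repress growth and stem cell genes such as HMGA2 and LIN28B, had 1.76, 1.10 and 1.62 TPM with CsiRNA and 1.21, 0.626 and 0.862 TPM with NEAT1siRNA. The groups overlapped, since NEAT1siRNA replicate 1 lay above CsiRNA replicate 2. Its log2 fold change of -0.39 (SE 0.12, adjusted p = 0.0271 from limma), or -0.73 (SE 0.22) on reads, was called in 8 of 16 alternative fits and was lost without CsiRNA replicate 1 or 3 and without NEAT1siRNA replicate 2 or 3.

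MIR924HG was the host that rose. It had 1.25, 1.18 and 0.93 TPM with CsiRNA and 1.76, 2.57 and 1.71 TPM with NEAT1siRNA. Every NEAT1siRNA value exceeded every CsiRNA value, and replicate 2 was the highest. The log2 fold change was 0.50 (SE 0.11, adjusted p = 0.00323 from limma), and 0.90 (SE 0.18) on reads. It passed in 15 of 16 alternative fits.

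The 5 hosts that did not pass were MIR100HG, MIR22HG, MIR181A2HG, MIR31HG and MIR497HG. MIR100HG, which holds miR-100, miR-125b and a let-7a copy, had 2.79, 2.48 and 2.32 TPM with CsiRNA and 2.01, 2.23 and 1.74 TPM with NEAT1siRNA. These groups did not overlap, and the adjusted p was 0.114 from limma and 0.0235 from voom on 281 to 458 reads. MIR22HG was at 1.41 to 2.03 TPM against 1.16 to 1.38 TPM (adjusted p = 0.13 from limma), also apart. The 3 others overlapped between groups, and MIR181A2HG spread most, from 1.66 to 5.62 TPM within the CsiRNA group on 12 to 40 reads.

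**Figure D2:**
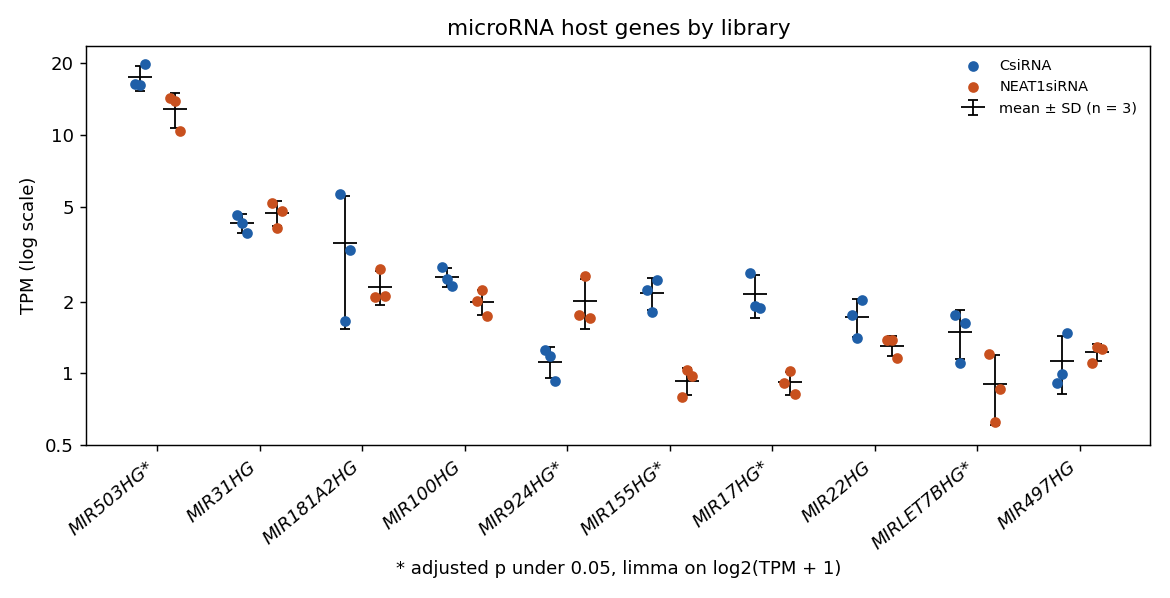
TPM on a log axis of the 10 microRNA host genes in each library, with CsiRNA in blue and NEAT1siRNA in orange, and bars for the mean and SD of 3 libraries. MIR17HG and MIR155HG fall from means of 2.14 and 2.17 TPM to 0.915 and 0.934 TPM without overlap, while MIR924HG rises from 1.12 to 2.01 TPM.

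Among the LINC genes, 5 rose and 7 fell past the threshold, which is 19% of the 63, where 14.0% of all genes passed. LINC01133, described in other cells as a partner of the splicing factor SRSF6, had the largest change on the log2(TPM + 1) scale and on recovered reads. LINC02541, on 7 reads in all, had the larger ratio of means (263%) and the larger log2 fold change with a pseudocount of 0.1 (1.87 against 1.23) and without the 4 short RNAs (1.30 against 1.24). LINC01133 had 5.45, 6.83 and 6.67 TPM with CsiRNA and 14.2, 15.7 and 14.9 TPM with NEAT1siRNA. The groups were far apart, and the replicates of each lay close together. With NEAT1siRNA the mean was 237% of that with CsiRNA, and the log2 fold change was 1.13 (SE 0.10, adjusted p = 1.44e-08 from limma), and reads rose from 100 to 151 per library to 275 to 327. The call was kept in 17 of 17 alternative fits.

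LINC01444 on chromosome 18 had 2.05, 1.83 and 1.42 TPM with CsiRNA and 3.44, 3.35 and 2.52 TPM with NEAT1siRNA. The groups did not overlap, and the log2 fold change was 0.57 (SE 0.11, adjusted p = 0.000886 from limma) on 18 to 39 reads, where it was 0.87 (SE 0.23) with voom. LINC00857, reported in several carcinomas, rose from 1.99 ± 0.186 to 2.87 ± 0.233 TPM (SD, n = 3 each, adjusted p = 0.0112 from limma), with log2 fold changes of 0.37 and, on reads, 0.58. LINC01224 rose from 1.57 ± 0.124 to 2.15 ± 0.062 TPM (SD, n = 3 each, adjusted p = 0.0398 from limma), with log2 fold changes of 0.29 and, on reads, 0.50. The LINC01224 call was lost in 4 of 6 fits that left out a library, and that of LINC00857 in 2 of 6 (without CsiRNA replicate 3 and without NEAT1siRNA replicate 3). LINC02541 also passed, with a log2 fold change of 0.78, but rested on 1, 0 and 1 reads with CsiRNA and on 2, 2 and 1 reads with NEAT1siRNA, and on reads its adjusted p was 0.181 with voom. That is too few reads to show a difference.

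Of the LINC genes that fell, LINC00852 had 2.67, 2.02 and 2.38 TPM with CsiRNA and 1.57, 1.45 and 1.02 TPM with NEAT1siRNA. The groups did not overlap, and NEAT1siRNA replicate 3 was lowest. Its log2 fold change was -0.52 (SE 0.11, adjusted p = 0.00182 from limma), and -0.76 (SE 0.20) on reads. LINC00941, reported in several carcinomas, had 2.91, 2.42 and 2.45 TPM and then 1.47, 1.95 and 1.26 TPM. Again the groups were apart, with a log2 fold change of -0.49 (SE 0.11, adjusted p = 0.00257 from limma), and -0.68 (SE 0.16) on reads. Both calls were kept when any of the 6 libraries was left out.

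LINC00472, described as lower in aggressive breast tumours, had 2.65, 1.46 and 1.76 TPM with CsiRNA and 1.36, 1.05 and 0.888 TPM with NEAT1siRNA. CsiRNA replicate 1 stood well above the others, and the groups were apart by a small gap between 1.46 and 1.36 TPM. The log2 fold change was -0.48 (SE 0.12, adjusted p = 0.00947 from limma) and -0.75 (SE 0.17) on reads, and the call was lost without CsiRNA replicate 1 and without NEAT1siRNA replicate 3. LINC01572 lost its call in the same fits, with means of 1.33 ± 0.269 and 0.792 ± 0.192 TPM (SD, n = 3 each) and log2 fold changes of -0.38 and, on reads, -0.68. LINC01291 fell from 11.9 ± 1.05 to 9.16 ± 0.932 TPM and LINC00665 from 5.27 ± 0.302 to 4.14 ± 0.125 TPM (SD, n = 3 each), and their calls were lost in 3 and 5 of the 6 fits that left out a library. Both calls were also lost with no filter on mean TPM and on recovered reads (adjusted p = 0.192 and 0.05 with voom). LINC00702, named here after its values were seen, fell from 3.49 ± 0.665 to 2.42 ± 0.672 TPM with overlapping groups (adjusted p = 0.0329 from limma), and its call was lost on recovered reads (adjusted p = 0.226 with voom).

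**Figure D3:**
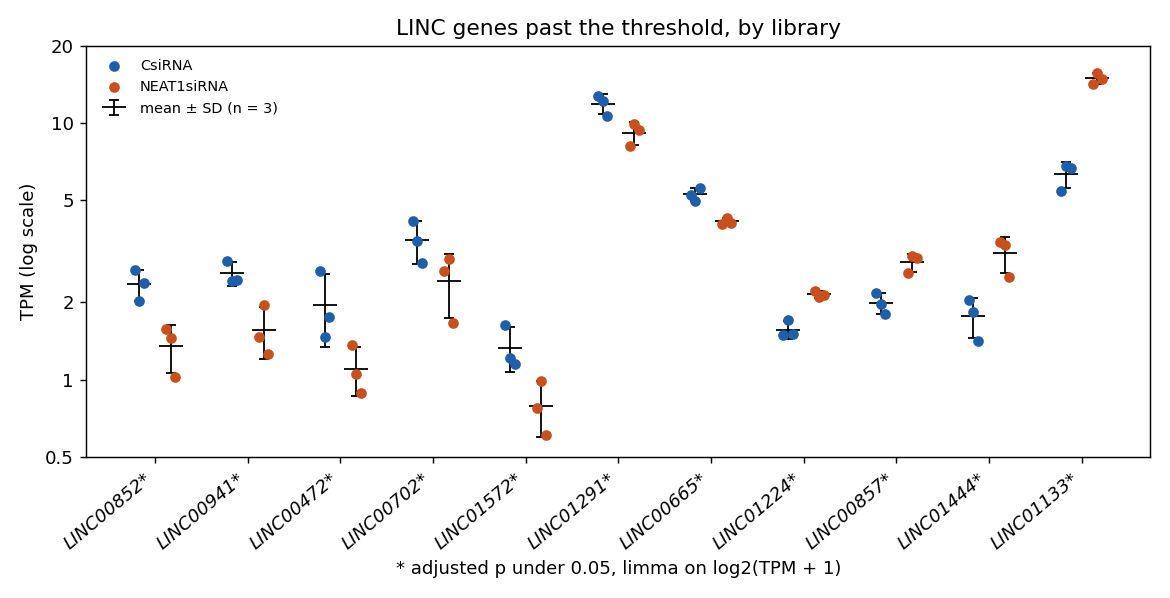
TPM on a log axis of the 11 LINC genes past the threshold with a mean of at least 10 reads, in each library and ordered by log2 fold change, with CsiRNA in blue, NEAT1siRNA in orange and bars for the mean and SD of 3 libraries. The groups are apart for LINC01133 (5.45 to 6.83 against 14.2 to 15.7 TPM) and overlap for LINC00702.

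Leaving out a library in turn kept 8 of the 17 calls in every such fit. They were LINC01133, LINC01444, MIR924HG and LINC02541 among the genes that rose and MIR17HG, MIR155HG, LINC00852 and LINC00941 among those that fell. This is a weak check, since p-values could be far smaller in such fits. For NEAT1 the adjusted p from limma was 1.21e-07 as reported and 1.87e-36 without CsiRNA replicate 2. LINC02004 passed as higher without NEAT1siRNA replicate 2 and as lower without NEAT1siRNA replicate 3, and LINC02541 has few reads. On recovered reads 16 members passed, 6 higher and 10 lower, and 13 of the 17 were among them with the same direction. This was 21.9% of the members, where 23.0% of all genes passed on reads. With no filter on mean TPM, where 18531 genes were tested and 2.73% of them passed, 3 members passed, LINC01133 higher and MIR17HG and MIR155HG lower.

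Of the 10 LINC genes with the highest mean TPM, LINC01133 and LINC01291 were past the threshold. LINC00960 was at 7.25 to 9.95 TPM with CsiRNA and 6.49 to 7.10 TPM with NEAT1siRNA, with groups apart and an adjusted p of 0.11 from limma. LINC01578, now named CHASERR and known to restrain its neighbour CHD2, was at 6.73 to 7.77 TPM against 6.95 to 9.64 TPM, and the groups overlapped. LINC01278, LINC00641, LINC00997 and LINC02001 overlapped too, with adjusted p-values from 0.378 to 0.789 from limma. LINC01279 is an older symbol of the protein-coding gene CCDC80, which the table also lists under its own name at a mean of 58.1 TPM, so how the authors' counting divided reads between both is uncertain. LINC01279 was at 5.35 to 6.26 TPM with CsiRNA and 6.39 to 6.80 TPM with NEAT1siRNA, groups that did not overlap, with an adjusted p of 0.224 from limma and 0.0144 from voom on reads.

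The 40 other members, none of them past the threshold, had means of 1.11 to 4.51 TPM and log2 fold changes from -0.30 to 0.31, and the groups overlapped for 36 of them. The 4 without overlap, named here after their values were seen, were LINC00294, LINC01128, LINC02486 and LINC02482, each lower with NEAT1siRNA. LINC02486, which RefSeq lists as the host gene of miR-4453, had the lowest adjusted p of the 40, 0.0664 from limma, with 1.56, 1.13 and 1.66 TPM with CsiRNA and 1.02, 1.07 and 0.916 TPM with NEAT1siRNA. Of the 56 members not called, 19 passed in at least 1 alternative fit and 37 in none.

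Summed over the 10 microRNA hosts, 39.8, 32.9 and 39.7 TPM were measured with CsiRNA and 30.8, 30.9 and 25.9 TPM with NEAT1siRNA. The sums did not overlap, and MIR503HG contributed most to each, with 16.3, 16.1 and 19.8 TPM and then 14.3, 13.9 and 10.4 TPM. Without MIR503HG the sums of the other hosts overlapped between the groups. The 63 LINC genes summed to 204, 172 and 167 TPM with CsiRNA and 176, 187 and 193 TPM with NEAT1siRNA, and these sums overlapped. Of the 193 TPM in NEAT1siRNA replicate 3, 24.9 TPM came from LINC02004 on 3 reads. Relative to the CsiRNA mean, the median over the members was 0.102, -0.050 and -0.035 in the CsiRNA libraries and -0.048, -0.050 and -0.130 in the NEAT1siRNA libraries, on the log2 scale. CsiRNA replicate 1 was the highest and NEAT1siRNA replicate 3 the lowest, and the other libraries lay close together. The medians of all genes tested were likewise highest in CsiRNA replicate 1 (0.075) and lowest in NEAT1siRNA replicate 3 (-0.114), and without either of these libraries the number of members that fell was 5 or 6.

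All 73 members were matched to RefSeq (GRCh38.p14), 62 by current symbol and 11 by an older one. Of these, 71 are annotated as long noncoding RNA and 2 as protein-coding (LINC01279 and LINC02581), and 15 overlap a protein-coding gene. The nearest coding genes within 200000 bases of the members past the threshold, and those that overlap them, were 26 genes, of which 14 were tested and 3 had changed, or 21.4%, where 14.0% of all genes passed. IGSF9 lies 15611 bases from LINC01133 and rose from 0.863 ± 0.115 to 1.38 ± 0.109 TPM (SD, n = 3 each, adjusted p = 0.0178 from limma), so that it reached the limit of 1 TPM through the NEAT1siRNA group, while PIGM on the other side had an adjusted p of 0.0979. OGFRL1, 98805 bases from LINC00472, fell from 75.3 ± 6.68 to 58.7 ± 10.1 TPM (SD, n = 3 each, adjusted p = 0.0222 from limma). Its groups overlapped, with 67.7 TPM in CsiRNA replicate 3 and 70.2 TPM in NEAT1siRNA replicate 2. CAPRIN2, 40730 bases from LINC00941, fell from 4.58 ± 0.396 to 3.53 ± 0.368 TPM (SD, n = 3 each, adjusted p = 0.0398 from limma). MRPL39, the neighbour of MIR155HG, was at 37.3 to 40.9 TPM with CsiRNA and 33.7 to 42.1 TPM with NEAT1siRNA. HPRT1, the neighbour of MIR503HG, was at 94.2 to 107 TPM and 93.9 to 122 TPM.

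Promoter windows, from 250 bases before to 50 after a RefSeq start site, were searched on both strands for the E-box CACGTG, the AP-1 motif TGANTCA, the TATA motif TATAAA and the NF-kB consensus. Of the 16 called members with a window, 0 held the E-box or the NF-kB consensus, 2 held AP-1 (MIR155HG and LINC00702) and 1 held TATA (MIR155HG). Over 35116 promoter windows the shares were 7.26% for the E-box, 7.71% for AP-1, 11.5% for TATA and 11.3% for the NF-kB consensus. The window of MIR155HG is shown as that of a called member with one of the largest changes. It held an AP-1 and a TATA match, in capitals at positions 191 and 207 of the window. It is that of RefSeq on the plus strand of chr21:25561895-25562194 (GRCh38.p14). The window of LINC01133, the gene with the largest change, held none of these letters, on the plus strand of chr1:159960974-159961273.
MIR155HG: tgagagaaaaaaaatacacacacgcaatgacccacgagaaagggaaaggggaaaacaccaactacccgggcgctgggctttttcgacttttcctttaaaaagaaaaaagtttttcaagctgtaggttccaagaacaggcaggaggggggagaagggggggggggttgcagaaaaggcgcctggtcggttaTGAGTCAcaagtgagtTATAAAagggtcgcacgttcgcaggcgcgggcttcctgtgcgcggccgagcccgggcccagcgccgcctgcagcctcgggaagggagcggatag
LINC01133: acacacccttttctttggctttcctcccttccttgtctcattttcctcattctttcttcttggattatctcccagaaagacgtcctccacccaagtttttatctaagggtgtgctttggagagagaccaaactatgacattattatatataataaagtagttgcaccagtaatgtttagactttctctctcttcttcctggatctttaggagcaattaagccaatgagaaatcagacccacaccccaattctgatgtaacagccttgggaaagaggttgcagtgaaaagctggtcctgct
A match is a stretch of letters, and no binding was measured in these libraries. The window of LINC02541, whose change rested on few reads, is not shown. Nor is that of MIR17HG, which had the same log2 fold change as MIR155HG (-0.71) and held no match.

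Of 20 genes of microRNA processing and action, 18 were tested, with 0 higher and 3 lower past the threshold, or 16.7%, near the 14.0% of all genes. Without CsiRNA replicate 1 and without NEAT1siRNA replicate 3, 0 were lower, and with quantile normalization, median centring, the 4 short RNAs left out, reads or the GC and length trend removed, 1 was higher. DGCR8, the RNA-binding partner of DROSHA in the Microprocessor, had 7.09, 6.03 and 5.99 TPM with CsiRNA and 4.67, 4.99 and 3.90 TPM with NEAT1siRNA (log2 fold change -0.42, adjusted p = 0.00613 from limma). XPO5, which exports the hairpins from the nucleus, had 38.4, 35.1 and 33.5 TPM and then 28.4, 27.8 and 26.1 TPM (log2 fold change -0.37, adjusted p = 0.00765 from limma). DICER1, which cuts them in the cytoplasm, had 12.9, 10.4 and 10.3 TPM and then 8.58, 9.56 and 7.70 TPM (log2 fold change -0.34, adjusted p = 0.0293 from limma). In each of these every NEAT1siRNA library was below every CsiRNA library. DROSHA itself was at 41.5 to 45.2 TPM and 38.6 to 43.4 TPM, with overlapping groups. Other classes of noncoding RNA gene are given for scale. Of 129 antisense genes tested, 7 were higher and 16 lower, and of 16 snoRNA host genes 0 were higher and 9 lower, and the median log2 fold changes of these classes were -0.073 and -0.320. These are 17.8% and 56.2% of their class, where 14.0% of all genes passed. The antisense calls were 9 higher and 9 lower with quantile normalization and 10 each on reads, and without CsiRNA replicate 1 only 7 antisense genes were lower. The snoRNA host genes that were lower numbered 4 without CsiRNA replicate 1 and 5 without NEAT1siRNA replicate 3. The differences between these classes and the members were not tested.

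**Figure D4:**
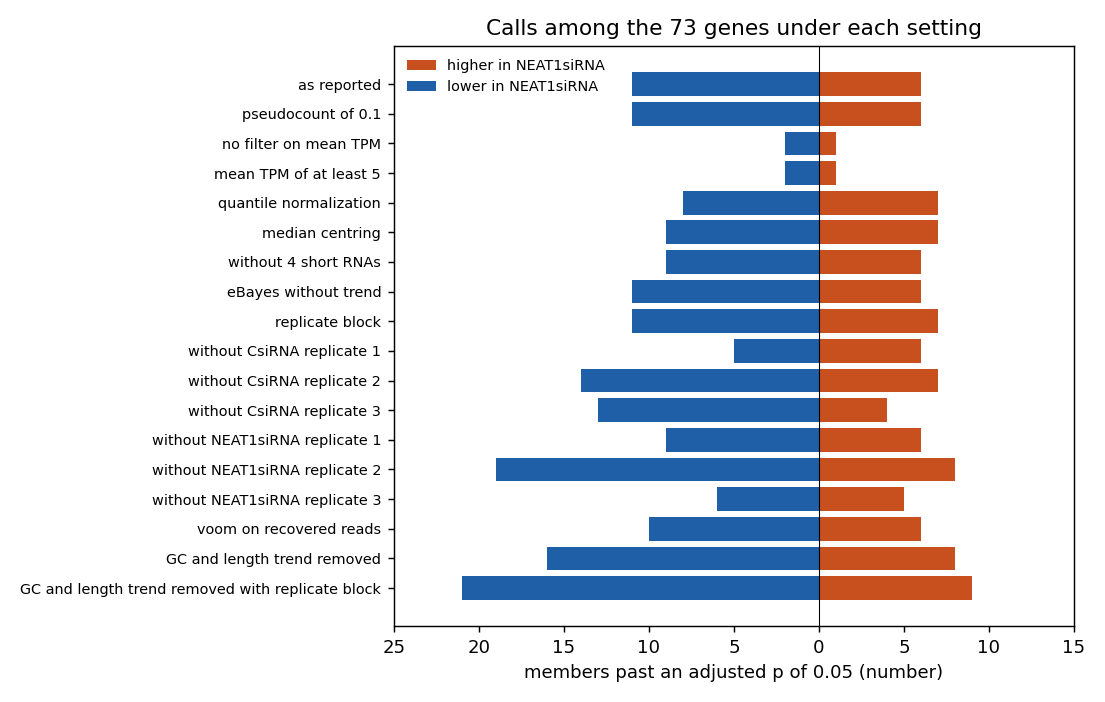
Number of the 73 genes past an adjusted p of 0.05 under each setting, with genes higher in NEAT1siRNA to the right and lower to the left. As reported, 6 are higher and 11 lower, and the number lower ran from 2 with no filter on TPM to 21 with the GC and length trend removed and a replicate block (in the fit with a mean TPM of at least 5 only 10 members are fitted).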

How the data were processed

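RNA-seq was analysed for 6 libraries of BT-549 cells, 3 with CsiRNA and 3 with NEAT1siRNA. Per the labels and the methods of the study, the authors prepared stranded mRNA libraries, aligned reads to GRCh38 with STAR and compared groups with DESeq2. The deposited expression table gives TPM per gene and library, which sum to 1000000 in each. The counter and its handling of strand are not given in the sources used here. The deposited comparison table gives a signal per gene, the mean of its normalized counts, and fold changes and p-values of the authors that were not used.

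The TPM were transformed to log2(TPM + 1) where the mean TPM was at least 1 and compared with lmFit and eBayes (trend) of limma 3.58.1 in R 4.3.3, with Benjamini-Hochberg adjustment over the genes tested. Reads were recovered by joining both tables, and used with voom as an alternative. The share of recovered values that came within 0.05 of a whole number fell to 17.1% for genes with a mean normalized count over 500, so reads of high genes are approximate. TPM depend on 4 short RNAs (RN7SK, RN7SL1, RN7SL2 and RPPH1) that hold 64.4 to 68.1% of the TPM of a library. With 3 libraries against 3, an exact permutation test cannot go below p = 0.1, so none was run. The fit was tested on simulated data. Python 3.11.15 was used with pandas 2.3.3.

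Named were all microRNA hosts, LINC genes past the threshold with groups apart, the 10 highest LINC genes, and the genes nearest to the limit on TPM. The members, lists and tests were chosen with earlier results of these data known. For the printed promoters, MIR155HG and LINC01133 follow the rule of largest log2 fold change on log2(TPM + 1), and LINC02541, which has few reads, was left out after its values were seen. Values of GC and length existed for 69 of the 73 members. Alternatives were another pseudocount, other filters and scalings, eBayes without trend, a replicate block, each library left out, voom, and removal of a GC and length trend.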

Additional observations from a re-analysis of the deposited data

How the results depend on the processing

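Of the counts of members, 6 were higher and 11 lower. With no filter on mean TPM they were 1 and 2, and with a mean TPM of at least 5, where 10 members were fitted, also 1 and 2. These were 4.11% and 30.0% of the members fitted, where 2.73% and 14.3% of all genes passed. At an adjusted p under 0.01, 4 were higher and 5 lower, and the share of all genes at this threshold was not computed. Leaving out a library gave 4 to 8 higher and 5 to 19 lower, with the lowest count without CsiRNA replicate 1, 6 without NEAT1siRNA replicate 3 and the highest without NEAT1siRNA replicate 2. All genes tested moved alike, with 963 lower as reported and 383, 425 and 1590 lower in these fits. The median log2 fold change then ran from -0.102 to 0.001, and was 0.001 without CsiRNA replicate 1, against a spread between replicates of 0.068. The direction of the median is therefore not settled by these libraries. Same-numbered libraries did not deviate together (correlations of -0.03, 0.251 and -0.107), so the numbers were not taken as pairs. With a replicate block 7 members were higher and 11 lower, and with the GC and length trend removed as well, 21 were lower. With the GC and length trend removed alone, 8 were higher and 16 lower. In either direction, 24.7%, 41.1% and 32.9% of the members passed in these fits, in this order. Of all genes, 15.3%, 24.8% and 20.7% passed. LINC02004, on 5 reads in all, had a log2 fold change of -0.36, which ran from -1.93 to 0.42 with a library left out and was 0.42 without NEAT1siRNA replicate 2. Limited to members with at least 10 reads, a choice made after seeing the data, 5 were higher and 11 lower. This is 24.6% of them, where 14.0% of all genes tested passed without that limit. NEAT1 fell in every fit, by 1.22 to 1.63 on the log2 scale. The causes of these shifts were not tested. For genes with few reads, depth limits what can be shown.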
